A study of Mus musculus with 6 samples.

Results

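Goblet and mucus-secreting cells are the epithelial cells that make and release the mucus gel of the colon. Members were selected on their own UMI values, as cell barcodes with at least 200 detected genes, at most 10% of UMIs (unique molecules) from mitochondrial mt- genes, at least 1 UMI of Epcam and 2 of Krt8, and at least 3 UMIs each of Muc2, Agr2 and Fcgbp. The rule found 120 such barcodes of 40523 in all 6 libraries, of 31304 that passed the quality limits and of 2273 that passed the Epcam and Krt8 limits. The libraries came from the colon of wild type mice. Specific pathogen free (SPF) mice were taken at day 0, labelled control, and after 2 and 7 days of dextran sodium sulfate (DSS), which injures the colonic epithelium. Pseudo germ-free (pGF) mice received antibiotics for 4 weeks and were taken then (day 0) or after 2 and 7 further days of DSS together with antibiotics. The antibiotics and the number of mice behind a library were not given in the sources used here. Each group was 1 library, so there is no replicate check and no p-value, and every comparison is between libraries. EDTA had been used to strip epithelium before the tissue was digested, and cells positive for CD45, a leukocyte protein, were collected. The members therefore came through steps meant to remove them, and they are not a census of colonic goblet cells.

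As background, goblet cells fold the giant mucin Muc2 in the endoplasmic reticulum, where the disulfide isomerase Agr2 is needed, decorate it with sugars in the Golgi and store it in granules. Fcgbp and the protease Clca1 are released with it and act on the gel outside the cell. The trefoil peptide Tff3, the lectin Zg16, the resistin-like protein Retnlb and the ribonuclease Ang4 are further secreted products, several of them active towards bacteria. The transcription factors Atoh1 and Spdef direct the secretory and goblet programmes.

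The SPF libraries of days 0, 2 and 7 gave 7, 40 and 1 members, and those of pGF gave 6, 63 and 3, so day 2 held most of them and the other libraries are given mainly as counts. At day 2 they were 5.01% (95% Clopper-Pearson interval 3.60 to 6.76) of 799 epithelial barcodes in SPF and 5.63% (4.35 to 7.15) of 1119 in pGF. The log2 ratio of these shares, pGF over SPF, was 0.17 (−0.39 to 0.73), so no difference was detectable at this depth. Over all quality-passing barcodes the shares were 1.33% and 0.841%, with a log2 ratio of −0.67 (−1.23 to −0.10). This second share moves with how many other cells each library held, since epithelial barcodes were 26.7% of quality-passing barcodes in SPF and 14.9% in pGF. On day 0 the share of epithelial barcodes was 5.56% (2.26 to 11.1) in SPF and 5.94% (2.21 to 12.5) in pGF, and on day 7 it was 2.00% of 50 and 3.85% of 78 barcodes, with upper bounds of 10.6% and 10.8%. All intervals here cover counting error only.

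**Figure D1:**
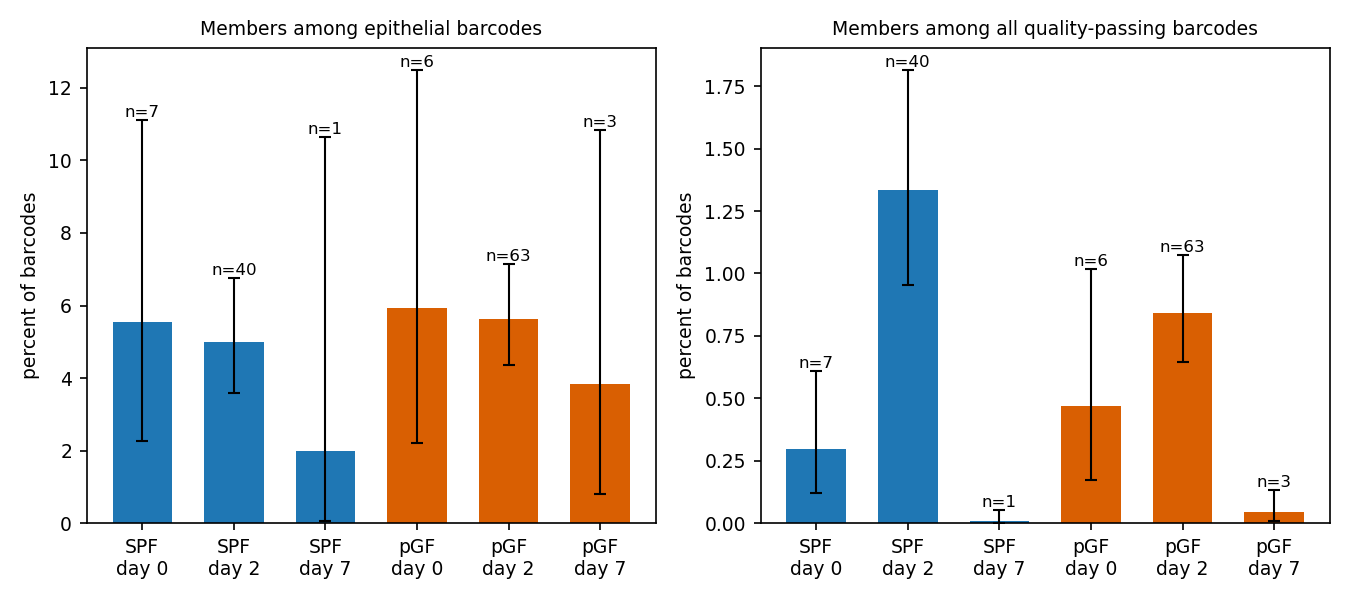
Members as a percent of epithelial barcodes (left) and of all quality-passing barcodes (right) in each library; bars show the share, whiskers the 95% Clopper-Pearson interval and n the members. At day 2 the share of epithelial barcodes was 5.01% in SPF and 5.63% in pGF with overlapping intervals, while the share of all barcodes was 1.33% and 0.841%.

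Members were deep barcodes, with a median of 24047.5 UMIs (4392 to 70568) in SPF and 26510 UMIs (1598 to 77297) in pGF at day 2. The mitochondrial limit removed 9 barcodes that met every other condition, 3 of them from each day 2 library, although 61.1% of all SPF day 2 barcodes and 19.3% of pGF day 2 barcodes exceeded it. Ptprc (the gene of CD45) or Cd3e was present in 4 of 40 SPF and 14 of 63 pGF members at day 2. Of the 120 members 6 carried a barcode sequence that also occurs in another library, and none shared one with another member. Just inside the rule's edges lay 4 members with 3 Fcgbp UMIs, 3 with 3 Muc2 UMIs and 2 with 3 Agr2 UMIs. Just outside lay 67 epithelial barcodes that met the Muc2 and Agr2 limits but had fewer than 3 Fcgbp UMIs, 46 of them with none. Another 15 missed the Muc2 limit alone and 15 the Agr2 limit alone.

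The label was checked on 6 goblet markers that the rule did not use, Clca1, Zg16, Tff3, Spink4, Atoh1 and Spdef. At least 4 of the 6 were present in 111 of 120 members, all 6 in 37, and none in 2. At day 2, Spink4, a small secreted protein of the Kazal inhibitor family, was present in 38 of 40 SPF and 61 of 63 pGF members, and Tff3 in 36 and 60. Atoh1 was present in 32 and 57, Spdef in 34 and 51, Clca1 in 29 and 40, and Zg16 in 17 and 42. Free RNA sets a background for such shares. Among barcodes with Cd3e and without Epcam or Krt8, at a median of 3021 UMIs in SPF and 3023 in pGF, Muc2 was present in 3.97% and 5.51% and Zg16 in 4.23% and 11.4%. These barcodes were far shallower than members, which lowers such shares. The other epithelial barcodes were nearer in depth, at medians of 18219 and 23602 UMIs. Of them 18.8% and 33.6% carried Zg16, 19.7% and 23.4% Spink4, and 18.8% and 20.4% Tff3. Clca1 was present in 5.40% and 6.21%, Atoh1 in 1.08% and 1.67%, and Spdef in 1.62% and 1.28%. Markers of other cells were then summed over the day 2 members. Of 10 fibroblast markers 3 UMIs were found in SPF members and none in pGF members. The 10 neutrophil markers summed to 4 UMIs in SPF and 1 UMI in pGF members, with S100a8 and S100a9 at 0. T cell markers summed to 2 UMIs in SPF and 93 in pGF members, where 3 members held at least 10. Plasma cell markers summed to 6437 UMIs in SPF and 125 in pGF members, and a single SPF member carried 3866 UMIs of Igha. Monocyte or macrophage markers summed to 57 UMIs in 27 of 40 SPF and 193 in 41 of 63 pGF members, with C1qc, Csf1r and Adgre1 at 0 in both. Absorptive colonocyte genes were present in every day 2 member, at 8008.5 CPM in SPF and 5865 CPM in pGF, against 15916 and 17164 CPM in the other epithelial barcodes. Tuft genes were at 455 CPM in SPF (38 of 40 members) and 505 CPM in pGF (60 of 63), against 473 and 384 CPM there. Of 13 tuft genes 11 were detected in SPF and 5 in pGF members, with Dclk1, Trpm5 and Pou2f3 at 0 in pGF.

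Against the other epithelial barcodes of the same library, members were set apart by secreted products, by secretory-pathway genes and by low levels of absorptive genes. The rule chose the members on 5 genes of this contrast, so these values describe them and test nothing. On the scale used for every comparison, log2 of the ratio of (CPM + 10), where CPM is UMIs per 1000000 over the summed barcodes, 409 of 8511 genes (4.81%) in SPF and 361 of 8623 (4.19%) in pGF were at least 2-fold higher in members. At least 2-fold lower were 490 (5.76%) and 492 (5.71%). Genes with the largest excess in both libraries were Mptx1, a secreted pentraxin (log2 8.61 in SPF and 8.29 in pGF), Spink4 (7.81 and 8.71), Zg16 (7.76 and 7.39) and Retnlb (7.08 and 7.73). Among the 15 genes named by this measure were also Ccl6, a chemokine, at 5.95 and 6.16, and Reg4, a secreted lectin of the regenerating family that marks deep crypt secretory cells of the colon, at 5.91 and 7.59. Furthest below the other epithelium were Aqp4, a water channel (−3.91 and −3.15), and Slc6a14, an amino acid carrier (−3.13 and −3.62). Products other than Muc2, Agr2 and Fcgbp made up a median of 3.45% (0.150 to 22.6) of a member's UMIs in SPF and 6.03% (0.183 to 32.9) in pGF, against medians of 0.0741% and 0.0907% in the other epithelial barcodes.

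The lists followed that division in both day 2 libraries. Of the endoplasmic reticulum folding and unfolded protein response genes, which serve bulk secretion, 22 of 35 tested were at least 2-fold higher in SPF members and 19 of 35 in pGF members, and none was lower, with medians of 1.16 and 1.04. Mucin glycosylation enzymes were higher for 19 of 34 (median 1.13) and 15 of 35 (median 0.84). Of the absorptive colonocyte genes 21 of 30 and 22 of 29 were at least 2-fold lower, with medians of −1.39 and −1.92. The median over all genes tested was −0.05 in SPF and −0.12 in pGF.

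Barcodes that met the Muc2 and Agr2 limits but not that of Fcgbp, 18 in SPF and 41 in pGF at day 2, differed from members in more than Fcgbp. Against them 206 of 8342 genes (2.47%) in SPF and 65 of 8430 (0.771%) in pGF were at least 2-fold higher in members, and 207 (2.48%) and 110 (1.30%) lower. Zg16 was 9846 CPM in SPF members and 7.91 CPM in these barcodes, and 26456 and 84.8 CPM in pGF. Clca1 was 3378 against 7.91 CPM in SPF and 2273 against 27.9 CPM in pGF. The other way, Plet1 was 103 against 1124 CPM in SPF and 83.2 against 605 CPM in pGF. Nupr1, a stress-responsive chromatin protein, was 569 against 2519 CPM in SPF and 941 against 3836 CPM in pGF. B3gnt6, the enzyme that builds the core 3 glycan of intestinal mucin, was 10.5 against 140 CPM in SPF and 26.3 against 91.8 CPM in pGF. This comparison group was chosen after values had been seen, and Fcgbp defines it.

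The 5′ ends of these genes are shown for Muc2 and Fcgbp, which are among the genes that defined the members. Those of Reg4 and Ang4 are shown because their day 2 levels differed between the arms in opposite directions. Each sequence is the 150 bases before the annotated start in RefSeq on GRCm38.p6, the assembly that mm10 names, written 5′ to 3′ along the gene. Capitals mark 2 E-box words, CAGCTG and CACCTG (or its reverse complement CAGGTG), the kind of word that basic helix-loop-helix factors bind.

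Muc2, chr7:141690190-141690339, plus strand: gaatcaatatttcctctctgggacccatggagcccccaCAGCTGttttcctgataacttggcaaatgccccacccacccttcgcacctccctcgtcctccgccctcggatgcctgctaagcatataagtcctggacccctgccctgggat
Fcgbp, chr7:28071086-28071235, plus strand: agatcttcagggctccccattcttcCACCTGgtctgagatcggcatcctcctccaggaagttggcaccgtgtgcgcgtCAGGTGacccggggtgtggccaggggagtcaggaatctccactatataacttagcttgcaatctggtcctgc
Reg4, chr3:98222006-98222155, plus strand: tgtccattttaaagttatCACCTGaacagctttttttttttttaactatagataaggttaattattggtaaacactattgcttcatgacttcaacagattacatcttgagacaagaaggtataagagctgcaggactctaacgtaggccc
Ang4, chr14:51773591-51773740, minus strand: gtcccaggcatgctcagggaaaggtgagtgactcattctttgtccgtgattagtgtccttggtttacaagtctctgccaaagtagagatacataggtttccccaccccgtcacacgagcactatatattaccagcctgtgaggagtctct

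The Muc2 window held 1 CAGCTG, 112 bases before the start. The Fcgbp window held CACCTG words beginning 125 and 72 bases before it, Reg4 held 1 at 132 bases, and Ang4 held neither word. The word TATAAA was also searched, on both strands, and none of these 4 windows held it. Over the 32851 windows of the same length in the table, CAGCTG was in 8.39%, CACCTG in 10.6% and TATAAA in 7.57%. Matches are descriptions of letters, and binding was not measured. Of 12 goblet genes looked up 7 had a window, and Zg16, Clca1, Tff3, Spink4 and Retnlb did not. Among the windows not shown, that of Agr2, also a gene of the rule, held none of these words. Mptx1 held TATAAA at 82 bases and neither E-box word. Sct held CAGCTG at 132 bases and TATAAA at 28 bases.

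Within each day 2 library the members parted by Zg16. In SPF 12 of 40 members (30.0%, 16.6 to 46.5) carried 84 to 4360 Zg16 UMIs and the other 28 at most 19. In pGF 29 of 63 (46.0%, 33.4 to 59.1) carried 41 to 6020 and the other 34 at most 16. Median depth on the higher and lower side was 19595 and 26095.5 UMIs in SPF, and 23401 and 28144 in pGF. The Zg16 level of the lower side, 56.5 CPM in SPF and 65.2 CPM in pGF, stood beside 12.1 and 47.2 CPM in T cell barcodes of the same libraries. In the other libraries 1 of 7, 1 of 1, 4 of 6 and 2 of 3 members were on the higher side (SPF day 0, SPF day 7, pGF day 0, pGF day 7). The limit of 20 UMIs was set after the gap had been seen. That gap is in UMIs and takes no account of depth. The pGF member with 41 Zg16 UMIs had 54326 UMIs in total, and the one with 16 had 21607. Scaled to CPM, these members lie close together although they fall in different classes.

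Clca1, Tff3 and Spink1 were higher in Zg16-high members of both arms, but the secreted products did not move as 1 group. Of 8602 genes in SPF 271 (3.15%) were at least 2-fold higher and 793 (9.22%) lower in Zg16-high members, and of 8258 in pGF 204 (2.47%) and 284 (3.44%). Of the mucus and secreted product list, which includes Zg16, 6 of 14 were higher and 1 lower in SPF (median 0.79), and 5 of 13 higher and 3 lower in pGF (median 0.25). In pGF Spink4 (−1.05), Reg4 (−1.04) and Retnlb (−1.40) were the lower ones, against 0.42, 1.19 and −0.07 in SPF. Clca1 was 9308 CPM in Zg16-high and 1335 CPM in Zg16-low members of SPF, and 5051 and 88.8 CPM in pGF. A single barcode weighs on the 1335 CPM. It held 843 Clca1 UMIs, the highest count in SPF, and was Zg16-low with 19 Zg16 UMIs, just under the limit of 20. Fcgbp, a gene of the selection rule given as a description, was 13597 and 1404 CPM in SPF and 6498 and 1020 CPM in pGF, and Tff3 was 20081 and 1634 CPM, then 13455 and 3705 CPM. Spink1, a trypsin inhibitor, was higher by log2 4.49 in SPF and 7.22 in pGF. Capn9, a calpain of mucous cells, was higher by 2.71 and 2.73, and Best2, a bicarbonate-conducting channel of colonic goblet cells, by 1.91 and 2.54. Muc2 itself differed little, by 0.27 and −0.22. On the lower side in Zg16-high members were Plet1 (0 UMIs against 139 CPM in SPF, and 19.0 against 134 CPM in pGF), the metallothionein Mt3 (−4.20 and −2.30), the homeodomain protein Hopx (−2.19 and −1.74), the fucosyltransferase Fut4 (−1.61 and −1.77) and the secretory-pathway factor Creb3l1 (−0.99 and −1.27). Of the plasma cell markers 8 of 9 tested were at least 2-fold higher in the summed Zg16-high members of SPF. A single barcode weighs on this sum, since the SPF member with 3866 Igha UMIs was Zg16-high, with 84 Zg16 UMIs. Plasma cell markers reached 177644 CPM in the highest SPF member, against a median of 142 CPM. Of the common leukocyte markers 2 of 4 were at least 2-fold higher in SPF and 3 of 4 in pGF. The part of these immune markers in the result was not tested.

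Across members, log2 (CPM + 10) of Zg16 and Clca1 correlated with r = 0.74 over 40 SPF members and r = 0.86 over 63 pGF members. Zg16 and Fcgbp gave 0.74 and 0.61, and Zg16 and Muc2 gave 0.21 and 0.22. Reg4 gave 0.51 and 0.75 against Spink4, 0.46 and 0.05 against Zg16, and 0.64 and 0.05 against Sval1. These points share a library, its free RNA and a common total, so r is a description.

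**Figure D2:**
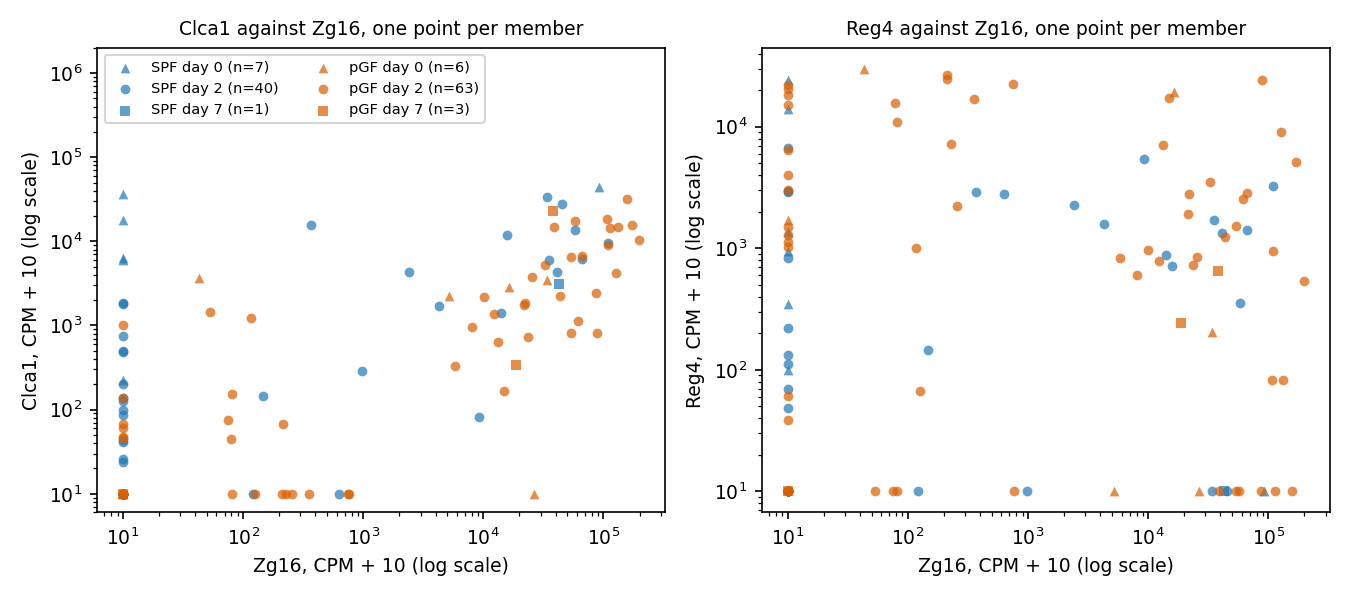
Clca1 (left) and Reg4 (right) against Zg16 in each of the 120 members, as CPM + 10 on log axes, coloured by arm and shaped by day. Most members with high Zg16 are high in Clca1 (r = 0.74 in SPF and 0.86 in pGF at day 2), whereas Reg4 is high in some members with high and some with low Zg16.

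Some lists differed in direction between the arms. Of the absorptive colonocyte genes 14 of 27 were at least 2-fold lower in Zg16-high members of SPF (median −1.03) and 13 of 26 at least 2-fold higher in those of pGF (median 0.95). Car1, a carbonic anhydrase of absorptive cells, was 63.4 CPM in Zg16-high and 2965 CPM in Zg16-low SPF members, and 1997 and 29.9 CPM in pGF. Single barcodes carry much of this, since 1 member held 68.3% of the Car1 UMIs in SPF and 1 held 56.8% in pGF. Of the cell cycle genes 16 of 20 were at least 2-fold lower in Zg16-high members of pGF (median −1.33) and 4 of 18 in SPF (median −0.65). Mki67, present in dividing cells, was 6.80 CPM in Zg16-high and 64.2 CPM in Zg16-low pGF members, and 37.3 and 69.3 CPM in SPF. It was found in 11 of 63 pGF and 8 of 40 SPF members. A single Zg16-low member held 25 of its 65 UMIs in pGF, and another held 24 of 64 in SPF. The cell cycle list summed to a median of 931 CPM per pGF member, and to 11381 CPM in the highest. Of the antimicrobial genes 11 of 20 were at least 2-fold higher in Zg16-high members of pGF (median 1.28), and 7 of 25 at least 2-fold lower in SPF (median −0.40). That list holds Zg16 itself, which set the classes and is among the higher genes of both. Median log2 ratios over all genes tested were −0.20 in SPF and −0.16 in pGF.

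**Figure D3:**
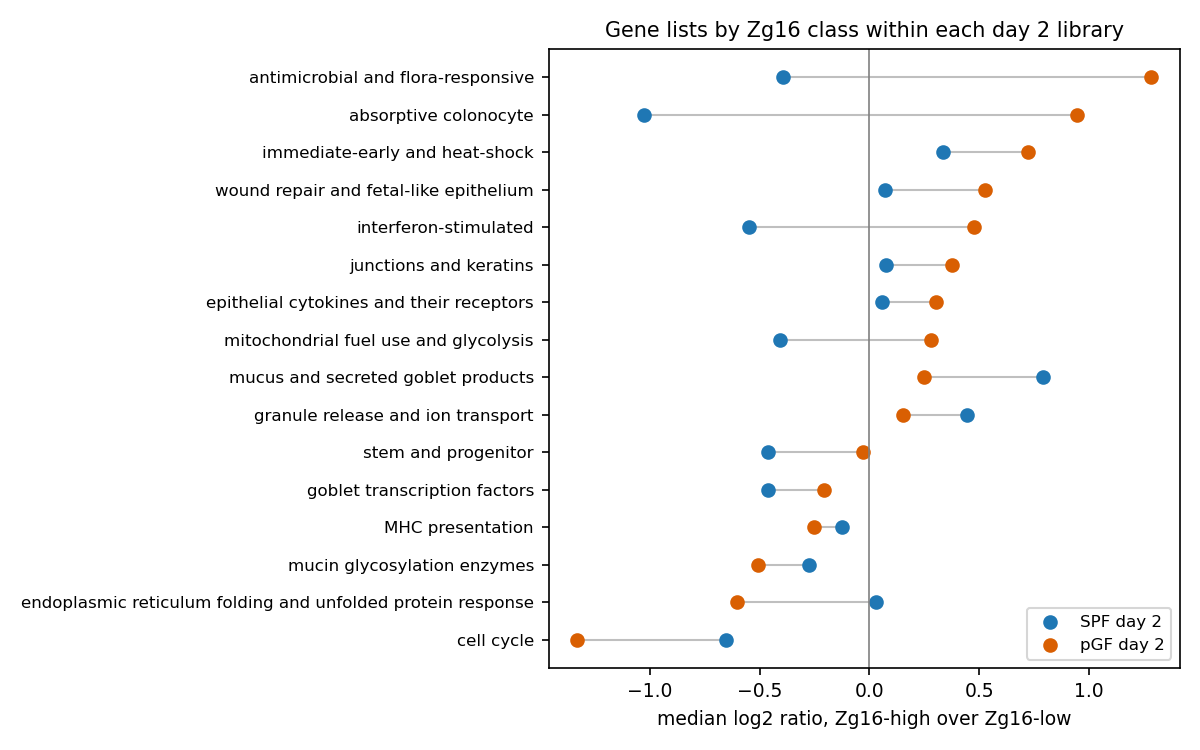
Median log2 ratio of Zg16-high over Zg16-low members for each gene list with at least 8 tested genes, in the SPF (blue) and pGF (orange) day 2 libraries. The absorptive list lies at −1.03 in SPF and 0.95 in pGF, and the cell cycle list is the lowest in pGF at −1.33.

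At day 2 the summed pGF and SPF members were alike in most genes. Of 8296 genes 39 (0.470%) were at least 2-fold higher and 102 (1.23%) at least 2-fold lower in pGF, with a median log2 ratio of −0.04. In the other epithelial barcodes of the same libraries 38 of 8399 (0.452%) were higher and 87 (1.04%) lower. The rule's own genes are given as a description, with Muc2 at 0.06, Agr2 at 0.32, Fcgbp at −0.40, Epcam at −0.06 and Krt8 at −0.82. Fewer cells of a state and less RNA per cell cannot be told apart in these sums.

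Among 14 tested secreted products outside the rule, 2 were at least 2-fold higher in pGF, Reg4 and Zg16, and 2 lower, Ang4 and Itln1, with a list median of 0.20. In single SPF members Reg4 ran from 0 through a median of 81.0 to 6696 CPM, and in pGF members from 0 through 1004 to 26840.5 CPM. The ranges overlapped, and 11 of 40 SPF and 33 of 63 pGF members had at least 20 Reg4 UMIs. Summed, Reg4 was 984 CPM (exact Poisson interval 925 to 1046) in SPF and 5661 (5547 to 5776) in pGF, a log2 ratio of 2.51, and 2.63 without the highest member of each library. It was 3.29 among Zg16-low members alone and 1.06 among Zg16-high members alone. With every member thinned to 4000 UMIs, which left out 2 pGF members, Reg4 was present in 17 of 40 SPF and 39 of 61 pGF members. In the other epithelial barcodes the ratio was 0.84, from 6.51 to 19.4 CPM.

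Zg16 was 9846 CPM (9657 to 10038) in SPF and 26456 CPM (26209.5 to 26703.5) in pGF, a log2 ratio of 1.42. Single members ran from 0 through a median of 0 to 109625 CPM in SPF and from 0 through 246 to 198113 CPM in pGF. One SPF member held 42.3% of that library's Zg16 UMIs, and without the highest member of each library the ratio was 2.01. Within Zg16-high members it was 0.65 and within Zg16-low members 0.18. The classes were cut on Zg16 UMIs themselves, which caps Zg16 in the lower class, so a small ratio there is largely set by the cut. These ratios therefore cannot tell a difference in class share from a difference in level. The share of members on the higher side was 30.0% in SPF and 46.0% in pGF with overlapping intervals. Zg16 was also higher in the other epithelial barcodes (log2 1.80) and in T cell barcodes (12.1 and 47.2 CPM), so its level outside the members moved with the arm, and the part of free RNA in the result was not tested.

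Ang4, a ribonuclease active against gut bacteria, was 1805 CPM (1725 to 1889) in SPF and 291 CPM (266 to 318) in pGF, a log2 ratio of −2.59. It came from few cells. In SPF 6 of 40 members held 133 to 1037 UMIs and the others at most 10, and in pGF 5 of 63 held 58 to 130 and the others at most 9. Of these 4 of 6 and 5 of 5 were Zg16-high. The highest SPF member held 54.8% of the UMIs, and without the highest member of each library the ratio was −1.94. Of the other products, Spink4 was at 0.73, Retnlb at 0.57, Tff3 at 0.33, Mptx1 at −0.12 and Clca1 at −0.57. Among Zg16-high members alone Spink4 (−0.25), Retnlb (−0.31) and Tff3 (−0.58) lay on the other side of 0. Clca1 was lower in pGF in both classes. It was 9308 CPM in SPF and 5051 CPM in pGF among Zg16-high members. Among Zg16-low members it was 1335 and 88.8 CPM (−3.77), and 1 SPF member with 843 Clca1 UMIs weighs on that ratio.

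Sct, the hormone secretin, showed how 1 barcode can set a sum. It was 894 CPM in SPF and 724 CPM in pGF, a log2 ratio of −0.30, but 919 of 936 SPF UMIs (98.2%) came from a single Zg16-high member and no other SPF member had more than 5. In pGF 15 of 63 members had at least 20 Sct UMIs, the highest 197, and 31 had at least 1. Without the highest member of each library the ratio was 4.56. Chga, Chgb, Neurod1 and 10 further enteroendocrine markers were at 0 in the members of both libraries. In T cell barcodes 0.794% (SPF) and 0.518% (pGF) carried a Sct UMI, and in the deeper other epithelial barcodes 12.6% and 16.9% did.

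**Figure D4:**
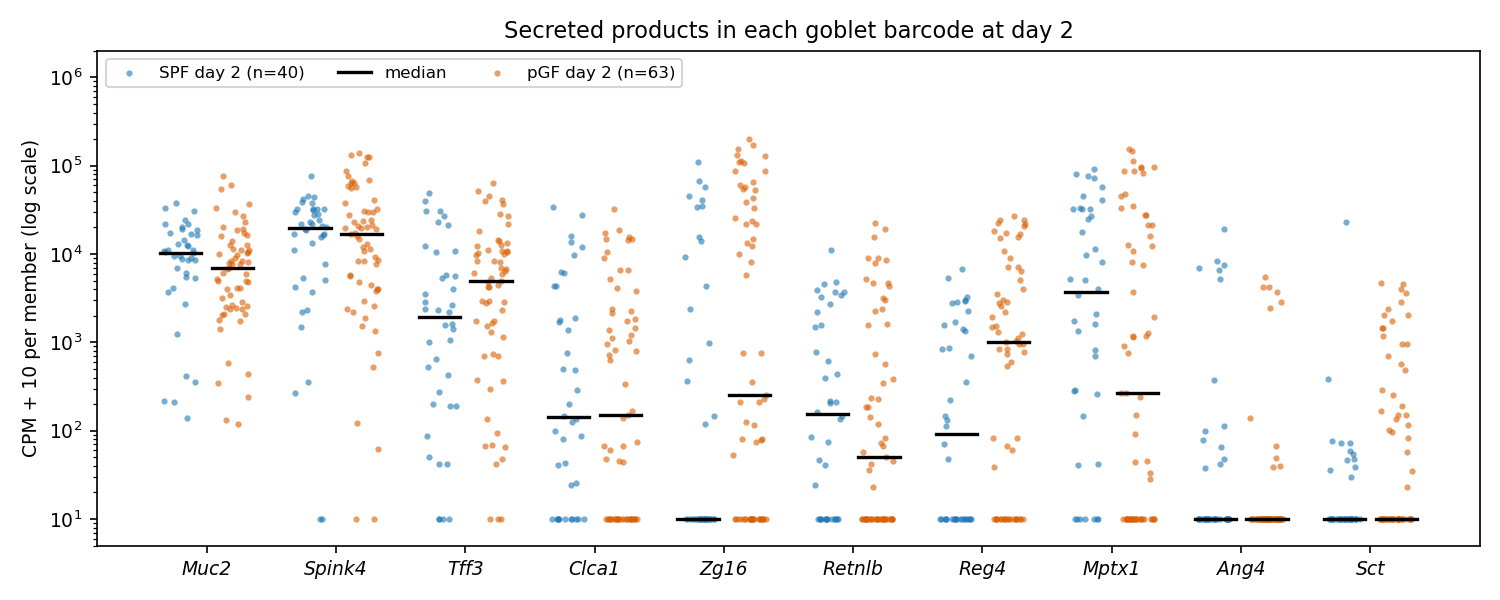
Level of 10 secreted products in each day 2 member, as CPM + 10 on a log axis, for 40 SPF (blue) and 63 pGF (orange) members; black lines are medians, and points at 10 had no UMI. Reg4 has medians of 81.0 CPM in SPF and 1004 CPM in pGF, Ang4 comes from a few members of each library, and 1 SPF member stands far above the others in Sct.

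Of 14 tested goblet transcription factors none differed 2-fold, with a median of 0.03. Atoh1 was 161 CPM (138 to 188) in SPF and 277 CPM (252 to 303) in pGF, a log2 ratio of 0.74, and Spdef 192 (166 to 220) and 160 (142 to 181) CPM, −0.24.

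Of 35 tested enzymes that build mucin sugars 1 was at least 2-fold higher in pGF and 4 lower, with a median of −0.21. B3galt5, which adds galactose to the chain, was 152 CPM (129 to 177) in SPF and 44.9 CPM (35.3 to 56.3) in pGF, log2 −1.56, and was present in 92.5% and 47.6% of members. The sialyltransferase St3gal4 was 78.3 and 20.4 CPM (−1.54). St6galnac6, another sialyltransferase, was 728 and 298 CPM (−1.26), with member medians of 620 and 254 CPM. B3gnt7, which extends lactosamine chains, was 413 and 192 CPM (−1.07). The one higher was St3gal1, at 0.955 CPM in SPF, from 1 UMI, and 13.8 CPM in pGF. Outside this list, B3gnt5, which starts lacto-series glycolipids, was lower (−1.51) and A4gnt, which caps glycans with alpha-linked N-acetylglucosamine, was higher (2.35, present in 10.0% of SPF and 36.5% of pGF members). B3galt5, St3gal4, St6galnac6, B3gnt7, B3gnt5 and A4gnt had the same sign among Zg16-low and among Zg16-high members taken alone, although B3gnt7 was at −0.34 in the latter. In the other epithelial barcodes St3gal4 and B3gnt7 lay on the opposite side, at 0.28 and 0.49.

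In the antimicrobial and flora-responsive list 13 of 25 tested genes lay past 2-fold on the lower side in pGF members and 2, Zg16 and Saa1, on the higher side, with a median of −1.01. In the other epithelial barcodes 9 of 22 were lower and 1 higher, with a median of −0.69, so the shift was not confined to members. Sprr2a3, a small proline-rich antimicrobial protein, was 231 CPM in SPF and 32.3 CPM in pGF (−2.51), present in 40.0% and 20.6% of members. Slpi, a protease inhibitor, was 225 and 5.39 CPM (−3.93) from 8 of 40 and 6 of 63 members. Reg3b, a bactericidal lectin, gave −4.80, but 84.9% of its SPF UMIs lay in 1 of the 3 SPF members that had any, and the ratio was −2.57 without the highest member of each library. The gasdermin genes Gsdmc2, Gsdmc3 and Gsdmc4 were lower by −1.39, −1.28 and −1.57. Copies within the Sprr2a, Gsdmc and Saa families are nearly alike, so reads may be divided among them. The list's median was −1.14 among Zg16-low members, −0.14 among Zg16-high members and −0.24 with at most 5% mitochondrial UMIs.

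**Figure D5:**
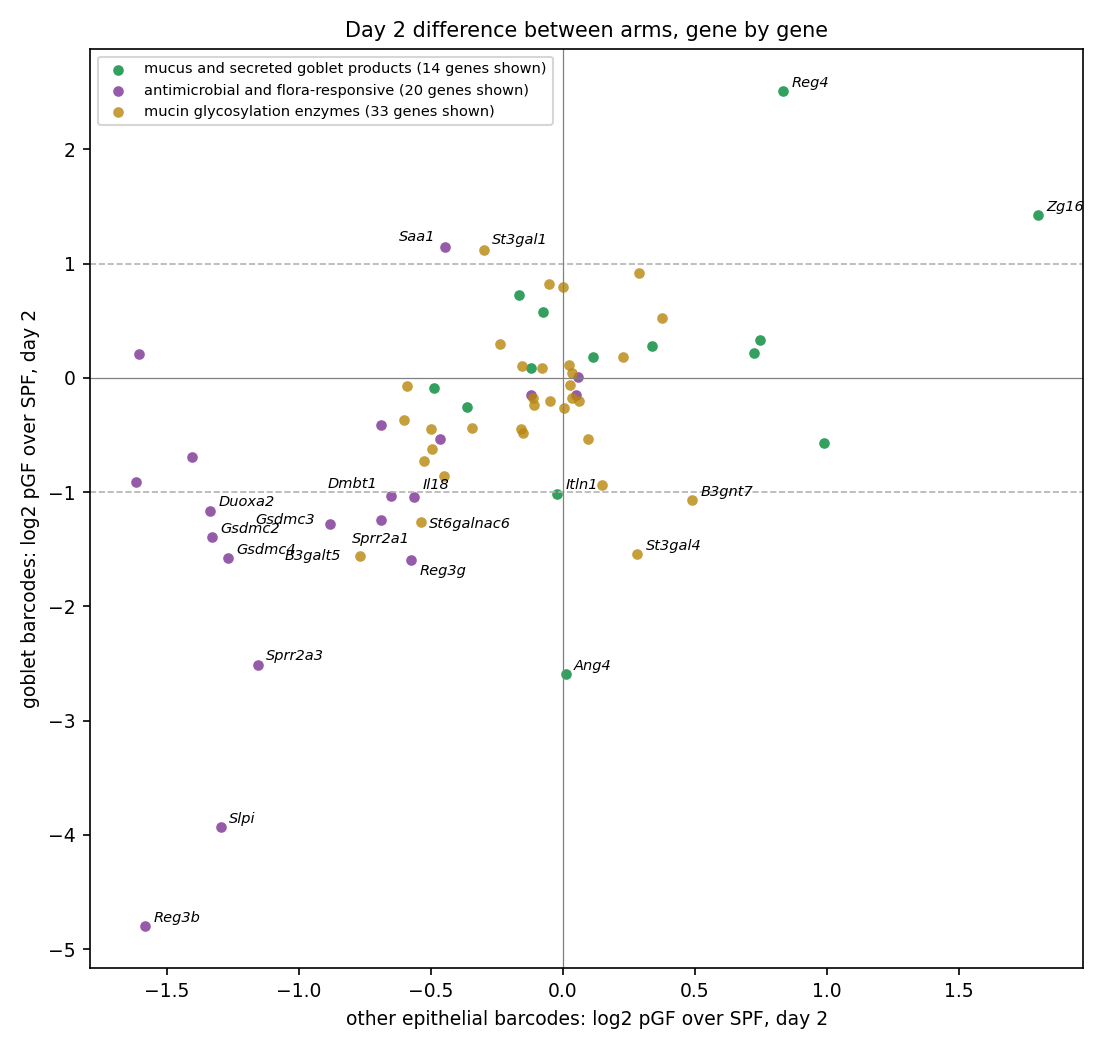
Log2 ratio of pGF over SPF at day 2 in members (vertical) against other epithelial barcodes (horizontal) for tested genes of 3 lists; each gene is one point under the first list that holds it, and dashed lines mark 2-fold in members. Reg4 is highest in members (2.51, against 0.84 in the other barcodes), and Ang4 is at −2.59 in members and 0.01 elsewhere.

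Endoplasmic reticulum folding and unfolded protein response genes lay a little lower in pGF members, with a median of −0.33 and none of 35 at 2-fold. The chaperone Hspa5 was 1013 CPM (953 to 1076) in SPF and 514 CPM (480 to 550) in pGF, −0.96, against −0.91 in the other epithelial barcodes. Of 19 tested genes for granule release and ion transport 2 were higher and none lower, Best2 (79.2 and 175 CPM, 1.05) and Car8, a carbonic anhydrase-related protein (66.8 and 194 CPM, 1.41). Best2 was under 2-fold within each Zg16 class, at 186 CPM in SPF and 335 CPM in pGF among Zg16-high members. Among Zg16-low members it was 42.4 and 49.2 CPM. Hsd11b2, which inactivates glucocorticoids, was 713 and 1766 CPM (1.30), present in 92.5% and 98.4% of members, and 0.15 in the other epithelial barcodes. Hopx was 81.2 and 202 CPM (1.22), and from 43.4 to 141 CPM in the other epithelial barcodes.

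Among 24 tested absorptive colonocyte genes 6 passed 2-fold with lower levels in pGF members and none with higher, with a median of −0.39. The median lay above 0 with at most 5% mitochondrial UMIs (0.33) and among Zg16-high members alone (0.58). Cyp2c55, a cytochrome P450, was 214 and 15.6 CPM (−3.13) from 8 of 40 and 4 of 63 members. Slc26a3, a chloride-bicarbonate exchanger, was 60.1 and 7.18 CPM (−2.03) from 9 and 4 members. These came from few members, and both were higher in pGF among Zg16-high members alone, at 1.72 and 0.59. Of 27 wound repair and fetal-like genes 3 were lower, Ly6a (−1.93), Ly6d (12.4 CPM in SPF and 0 UMIs in pGF) and Emp1 (−2.01), and none higher, with a median of −0.39. Of 16 interferon-stimulated genes Cxcl10 alone passed 2-fold (−2.08), with 54.0% of its SPF UMIs in 1 member. One of 19 cell cycle genes was lower, Cenpf (−1.10), and none higher.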

How the data were processed

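CD45-sorted colon cells of 6 groups were profiled with a Chromium 5' kit. What the authors deposited are unnormalized UMI counts for each gene in each barcode, made with Cell Ranger 6.1.2 per the file headers; the submitters' processing notes also name mm10, R 4.1.3 and Seurat 4.1.1. The barcode and gene name files hold text. Library totals ran from 23335071 to 52772901 UMIs. Groups follow the labels. Members and gene lists were chosen with earlier results of these data known.

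UMIs were summed over members, scaled to CPM and compared as log2 of (CPM + 10), which understates the change of low genes. Genes with at least 10 CPM in 1 of the 2 sums were tested against a 2-fold limit. The plan asked for at least 100 members in each library for such comparisons; day 2 held 40 and 63, so they are descriptions below that minimum. Other epithelial barcodes are those with Epcam and Krt8 that are neither members nor Fcgbp-low. The Fcgbp-low group and the limit of 20 Zg16 UMIs were chosen after seeing the data.

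Genes named for day 2 were 12 per direction by size of ratio, from those reaching 50 CPM and 20 UMIs in the library with more, found in at least 10% of its members and at no lower CPM there than in non-epithelial barcodes, with rule, immunoglobulin, T cell receptor, mt-, ribosomal protein, haemoglobin, sex-linked marker and unnamed genes left out. Against other epithelium they were the 15 highest and 5 lowest by the smaller ratio of both libraries. Not every gene so chosen is reported here. List members are named as such, and Sct and the Fcgbp-low and Zg16 genes were chosen after their values were seen. Shares have Clopper-Pearson, sums exact Poisson and share ratios Katz intervals, each 95%. Doublets were not removed, except in an alternative that took the highest scores at 0.8% per 1000 barcodes. The fold calculation was tested on simulated data. Python 3.11.15, numpy 2.4.6, scipy 1.17.1, pandas 2.3.3 and scanpy 1.11.5 were used. Alternatives covered filters, the rule's limits, doublets, depth, scaling (TMM), totals and pseudocount.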

Additional observations from a re-analysis of the deposited data

Results flagged for a closer look

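6 genes of the lists or the named set were at least 2-fold apart between the arms in day 2 members and lay at least 0.25 on the other side in the other epithelial barcodes. The difference itself was not tested, since each arm is 1 library. In members B3gnt7 was −1.07 and St3gal4 −1.54, against 0.49 and 0.28 elsewhere. The histone gene Hist1h2ap was −1.87 against 0.63, and Cenpf −1.10 against 0.71. Car1 was −1.30 against 0.76, and 0.28 in members once the highest doublet scores were removed. Saa1 was 1.14 against −0.45, at 10.5 CPM in SPF and 35.3 CPM in pGF members.

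In 3 lists the medians for Zg16-high over Zg16-low members lay on opposite sides in the arms with both at least 0.5 from 0, also untested. Membrane mucins were at −1.23 in SPF and 0.57 in pGF, over 4 genes. The absorptive list was at −1.03 and 0.95. Tuft genes were at 0.69 over 5 genes in SPF and −1.38 over 1 gene in pGF.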

How the results depend on the processing

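No paired analysis was possible because each group was 1 library. The SPF, pGF day 2 log2 share ratio stayed within its interval under all 8 alternatives run. With at most 5% mitochondrial UMIs the day 2 shares were 8.42% in SPF and 7.17% in pGF, and 13.5% in pGF day 0. With 6 UMIs of each mucus gene they were 4.20% in pGF day 2 and 0% in SPF day 7, which at 50 barcodes says little. Thinned to 2000 UMIs they were 2.33% in SPF day 2, 2.44% in pGF day 2 and 0% in SPF day 7. Counts of genes at least 2-fold higher and lower in pGF, 39 and 102, were 235 and 342 with a pseudocount of 1, 10 and 25 with 50, 61 and 156 with totals that leave out rule, immunoglobulin, mt- and ribosomal protein genes, and 21 and 53 from 50 CPM. Genes higher were 99 with at most 5% mitochondrial UMIs and 84 with means of per-barcode CPM. Chosen after seeing the data, Zg16-low members alone gave 96 and 221 and Zg16-high members alone 526 and 374, from 12 and 29 members. Of the named genes, Reg3b (0.13) and Car1 (4.47) changed sign at 5% mitochondrial UMIs, and Car1 (0.28) without the highest doublet scores. Among Zg16-high members Lgals2 (−0.31), Cyp2c55 (1.72), Slc26a3 (0.59), Apol10a (1.15), Gsdmc4 (1.10), Cd177 (0.41), Reg3b (0.18) and Car1 (4.77) did, as did Spink4, Retnlb and Tff3, which lay within 2-fold. Sct was 5.23 among Zg16-low members and 4.56 without the highest members. The tuft median became 0.33 at 5% mitochondrial UMIs and 0.34 from 50 CPM. Absorptive, membrane mucin, junction and fuel use medians were above 0 at 5% mitochondrial UMIs (0.33, 0.12, 0.24 and 0.43) and among Zg16-high members (0.58, 0.61, 0.18 and 0.82). There the interferon (0.20) and cytokine (0.16) medians were too, and that of mucus products was −0.34. The cell cycle median was 0.25 among Zg16-low members, and that of cytokines 0.12 from 50 CPM. TMM shifted every ratio by 0.06. The cause of these shifts was not tested.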
